A study of Mus musculus with 6 samples.

Results

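The 10 genes described here pattern the neural tube and are known as targets of GLI factors in neural progenitors: Foxa2, Nkx2-2, Olig2, Nkx6-1, Nkx6-2, Dbx1, Irx3, Pax6, Sox1 and Sox2. They were chosen by name, with earlier results of these data known, and the rule uses no measured value. They are 10 of 21631 protein-coding genes on chromosomes that carry peaks. Each of the 10 was given the peaks whose summit lay within 100 kb of its mm10 interval, which came to 4 of 3640 peaks with doxycycline and 5 of 4379 peaks without it. The data are ChIP-seq of GLI3R, the repressor form of GLI3, in cardiac progenitors derived from mouse embryonic stem cells of the A2Lox.cre strain and harvested on day 6. All groups carried the same GLI3R-FTA cell line, in which the tagged protein is induced by doxycycline. One condition was untreated and the other received 500 ng/ml doxycycline from day 5, for 24 h. In each condition 2 streptavidin pull-downs and 1 input were made, 6 libraries in all. The labels name a single cell line and do not say whether it is 1 clone, nor whether the pull-downs came from separate cultures. The authors deposited 1 peak list per condition, so no peak has a replicate error and no test between conditions was possible. Peak lists hold no expression, so the cardiac identity of the cells could not be checked against marker genes.

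In the developing neural tube, Sonic hedgehog from the notochord and floor plate forms a ventral-to-dorsal gradient. Progenitors read it through the balance of GLI activators and the GLI3 repressor, and switch on transcription factors that repress one another and so divide the tube into domains. Foxa2 marks the floor plate, Nkx2-2 the most ventral progenitors and Olig2 the motor neuron progenitors. Nkx6-1 and Nkx6-2 are found in ventral progenitors, Dbx1 marks intermediate progenitors, and Irx3 and Pax6 are held back ventrally by Hedgehog signalling. Sox1 and Sox2 are general neural progenitor factors, and Sox2 also maintains pluripotent stem cells. The question here was which of these neural genes had listed peaks nearby in cells of the heart lineage. The untreated cells received no doxycycline to induce the tagged protein, and whether their listed peaks reflect GLI3R was not tested.

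The 10 genes had listed peaks nearby about as often as genes in general. With doxycycline, 3 of the 10 genes had a summit within 100 kb (Foxa2, Pax6 and Sox2), beside 31.7% of all protein-coding genes. Without doxycycline, 4 had one (Foxa2, Sox2, Nkx6-1 and Irx3), beside 30.6% of all genes. Foxa2 and Sox2 had summits in both lists, while 10.4% of all genes did. Nkx2-2, Nkx6-2, Olig2, Dbx1 and Sox1, 5 of the 10, had a summit in neither list, as did 48.1% of all genes. Among genes no longer than Pax6, the longest of the 10 at 29515 bp, the shares were 28.7% with doxycycline and 26% without. Counted by length of sequence, the windows of the 10 genes held 1.92 doxycycline summits per Mb (95% exact Poisson interval 0.524 to 4.92) and the windows of all genes 1.53. For untreated summits the values were 2.40 per Mb (0.781 to 5.61) and 1.64. Both genome-wide values lay inside the intervals of the 10 genes, which cover counting error only.

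**Figure D1:**
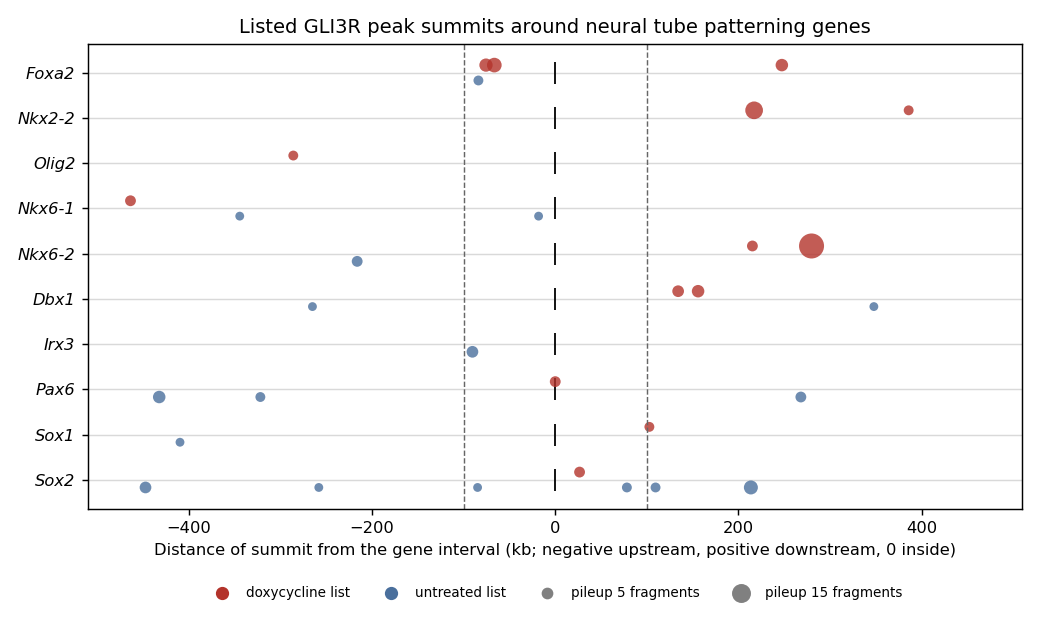
Summits of both peak lists around each of the 10 genes. The x axis is the distance of the summit from the gene interval in kb (negative upstream, positive downstream, 0 inside the gene), dashed lines mark 100 kb, red points are the doxycycline list, blue points the untreated list, and point area is proportional to the pileup in fragments. Foxa2 has 2 doxycycline summits and 1 untreated summit on the same upstream side, and Sox2 has 6 untreated summits in all within 500 kb, upstream and downstream together.

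Foxa2, the floor plate forkhead factor (chromosome 2, 148042877 to 148046969, minus strand), had the strongest peaks of the 10 genes. The stronger doxycycline peak lay 66.5 kb upstream of the gene (chromosome 2, 148113376 to 148113582). The authors' values gave it 8.77-fold enrichment, which equals (pileup + 1) / (local expectation + 1) in fragments, and a −log10 q of 9.35, where q is the p-value adjusted for the number of sites. Its pileup, the number of fragments over the summit worked back from those values, was 11 (95% exact Poisson interval 5.49 to 19.7). The second doxycycline peak lay 75.6 kb upstream (148122346 to 148122650), and had 9 fragments (4.12 to 17.1), a 7.31-fold enrichment and a −log10 q of 6.61. Of all doxycycline peaks, 10.9% had a −log10 q at least as high as the first and 20.6% at least as high as the second, so both stood in the upper part of their list. The untreated list had 1 Foxa2 peak, 83.9 kb upstream (148130765 to 148130914), with 5 fragments (1.62 to 11.7), at 4.72-fold and a −log10 q of 2.52. It overlapped neither doxycycline peak, and its summit lay 8.26 kb from the nearer one. Foxa2 was the nearest protein-coding gene to these 3 peaks, no annotated gene covered their summits, and no other protein-coding gene lay within 100 kb of Foxa2. At least 2 doxycycline summits within 100 kb were found at 7.93% of all genes.

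The other 4 ventral genes had 1 peak within 100 kb between them, at Nkx6-1. Nkx2-2, the homeodomain factor of the most ventral progenitors (chromosome 2, 147176485 to 147195434), had its nearest doxycycline summit 217 kb away, inside Kiz, with 12.4-fold enrichment and a −log10 q of 17.04. That peak ranked in the top 3.49% of its list, and Kiz was its nearest gene. The nearest untreated summit to Nkx2-2 was 935 kb away, the greatest distance of the 10 genes in either list. Olig2, the basic helix-loop-helix factor of motor neuron progenitors (chromosome 16, 91225550 to 91228677), had its nearest summits 286 kb away with doxycycline, inside Synj1, and 735 kb away without. Nkx6-1 (chromosome 5, 101659184 to 101664711), a homeodomain repressor of ventral domains, had 1 untreated peak, 18.2 kb upstream (101682827 to 101682979). It had the lowest pileup of the untreated list, 4 fragments (1.09 to 10.2), with 3.93-fold enrichment and a −log10 q of 1.48, and 34.8% of untreated peaks shared that pileup. With doxycycline the nearest summit to Nkx6-1 was 464 kb away. Its relative Nkx6-2 (chromosome 7, 139579376 to 139582797) had its nearest summits 215 kb away with doxycycline and 216 kb away without. A 22.04-fold doxycycline peak, in the top 0.769% of its list, lay 280 kb from Nkx6-2, but only 32.3 kb from Pwwp2b.

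The intermediate and dorsal genes each had at most 1 peak within 100 kb over both lists. Pax6, a paired-box factor of intermediate and dorsal progenitors (chromosome 2, 105668896 to 105698410), was the only gene of the 10 with a summit inside it. The doxycycline peak (105677300 to 105677455) lay 5.09 kb from the nearest annotated start site of Pax6, and had 6 fragments (2.20 to 13.1), 5.12-fold enrichment and a −log10 q of 3.07. Of all doxycycline peaks 71.4% had a −log10 q at least as high, so it stood in the lower part of the list. A summit inside or within 10 kb was found at 9.66% of all genes with doxycycline. Whether the site is exonic or intronic was not analysed here. The nearest untreated summit to Pax6 was 268 kb away. Irx3, an Iroquois homeodomain factor (chromosome 8, 91798511 to 91801654), had 1 untreated peak 90.4 kb upstream (91891964 to 91892131), the strongest untreated peak of the 10 genes. It had 7 fragments (2.81 to 14.4), was enriched 6.29-fold and had a −log10 q of 4.81, and 17.2% of untreated peaks were at least as high. With doxycycline the nearest summit to Irx3 was 736 kb away, the greatest distance of the 10 in that list. Dbx1, the homeodomain factor of intermediate progenitors (chromosome 7, 49631499 to 49636835), had its nearest summits 134 kb away with doxycycline, inside the neighbouring gene Nav2, and 265 kb away without.

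Of the neural progenitor SOX genes, Sox2 had peaks and Sox1 did not. Sox2 (chromosome 3, 34649995 to 34652461) had 1 doxycycline peak, 26.5 kb downstream (34678919 to 34679082), with 6 fragments (2.20 to 13.1), at 5.12-fold and a −log10 q of 3.07, the same values as the peak in Pax6. Its 2 untreated peaks lay 84.8 kb upstream, within the long non-coding RNA gene Sox2ot (34565156 to 34565301), and 78.2 kb downstream (34730602 to 34730756). They had 3.93-fold and 4.72-fold enrichment and pileups of 4 and 5 fragments. None of them overlapped the doxycycline peak, whose nearest untreated summit was 51.7 kb away. Sox1 (chromosome 8, 12395519 to 12399555) had its nearest doxycycline summit just beyond the limit, 103 kb downstream, with a pileup of 5, the minimum of that list. Another protein-coding gene lay nearer to that summit, at 70.7 kb. Inside the limit, the farthest untreated summits were those of Irx3 at 90.4 kb, Sox2 at 84.8 and 78.2 kb and Foxa2 at 83.9 kb. The farthest doxycycline summit inside it was that of Foxa2 at 75.6 kb. The nearest untreated summit to Sox1 was 410 kb away.

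Taking the 9 peaks together by list, none overlapped a peak of the other list. Such overlap was rare in general, at 73 of 3640 doxycycline peaks and 75 of 4379 untreated peaks. All lay where the local expectation was at the most frequent value of its list, 0.368 fragments with doxycycline and 0.272 without. The Pax6 and Sox2 doxycycline peaks were below the median −log10 q of their list (3.81), and the 2 Foxa2 peaks above it. In the untreated list 2 of the 5 peaks stood at the lowest pileup, 2 at the list's median pileup of 5 and 1, that of Irx3, above. The lowest pileup listed was 5 fragments with doxycycline and 4 without. Since the local expectation also sets which sites pass, absence from a list does not show that a site had fewer fragments. Whether pileups scale with the depth of the pull-downs was not tested, and the fragment totals were not analysed here.

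**Figure D2:**
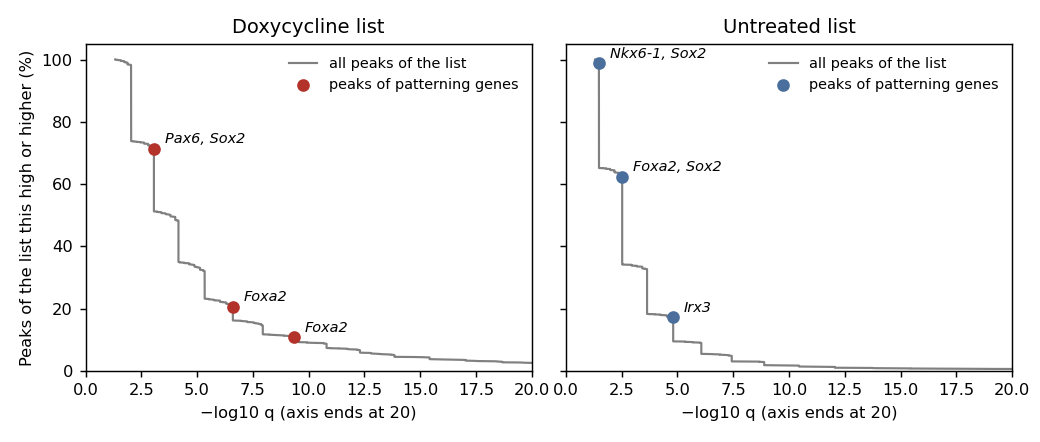
Rank of the peaks of the 10 genes within their own list. The x axis is the authors' −log10 q (the axis ends at 20), the y axis the percentage of the list's peaks with a value at least as high, the grey line all peaks, and the points the peaks within 100 kb of a named gene. The Foxa2 peaks stand at 10.9% and 20.6% of the doxycycline list, the Pax6 and Sox2 peaks at 71.4%.

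The count of genes ran close to the genome-wide share up to 200 kb with doxycycline, and less closely without it. With doxycycline, 1 gene had a summit within 10 kb (9.66% of all genes), 2 within 50 kb (20.3%), 5 within 200 kb (49.4%) and 9 within 500 kb (76.2%). Without doxycycline the counts were 0 (8.7%), 1 (19.1%), 4 (48.1%) and 8 (77.5%), and the count within 100 kb was also 4 (30.6%). The median distance to the nearest doxycycline summit was 175 kb for the 10 genes and 204 kb for all genes. For untreated summits it was 241 kb and 211 kb.

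**Figure D3:**
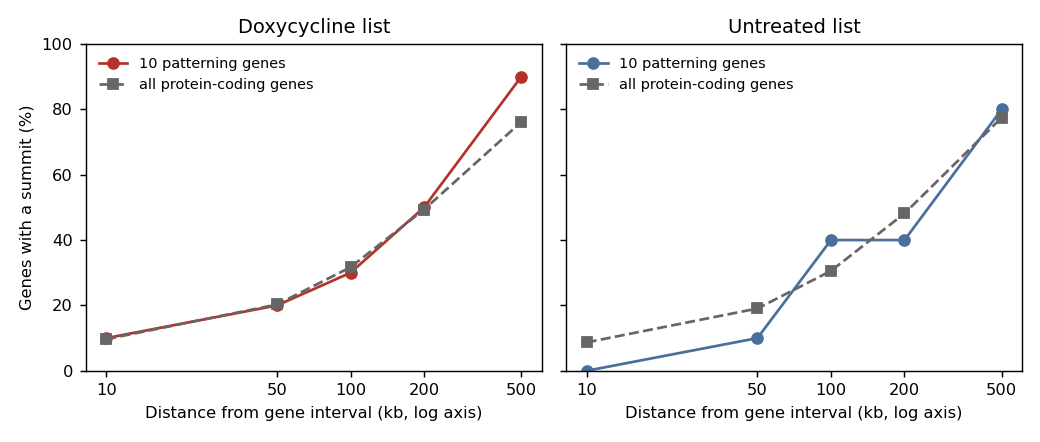
Genes with a summit, in percent, against the distance allowed from the gene interval in kb (log axis), for the doxycycline list (left) and the untreated list (right). Coloured circles are the 10 patterning genes and grey squares all 21631 protein-coding genes. In the doxycycline list both lines run together to 200 kb.

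The order of the conditions depended on the distance and on the threshold. At the authors' threshold 1 gene fewer had a doxycycline summit than an untreated one within 100 kb, and 1 gene more within 10, 50, 200 and 500 kb. Within 100 kb and with a pileup of at least 5 fragments in both lists, 3 genes had a summit in each, where 31.7% of all genes had one with doxycycline and 20.9% without. With a −log10 q of at least 5, Foxa2 alone kept its doxycycline peaks, 1 gene of 10 beside 13.9% of all genes, and 0 genes kept an untreated peak beside 3.37%.

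No peak of either list touched a promoter of the 10 genes. RefSeq gives 13 start sites for them on GRCm38.p6, and windows from 250 bases before to 50 after each were compared with the peaks. Over 32619 such windows of all genes, 116 (0.356%) met a doxycycline peak and 9 (0.0276%) an untreated one. The GLI consensus GACCACCCA, searched on both strands (TGGGTGGTC on the other), had no exact match in the 13 windows and was found in 0.254% of all windows. With 1 mismatch allowed it was found in 1 of the 13 (7.69%) and in 6.78% of all. That match lay 66 bases upstream of a Foxa2 start site, in the window chr2:148045415-148045714 on the minus strand. It is shown since Foxa2 had the strongest peaks, although these lay over 66 kb from it, and capitals mark the 9 bases of the match:
Foxa2: tggggaggggTGGGAGGTCggctggcgag
Against TGGGTGGTC, counted from 1 at its left end, the substitution is T5A. A match of letters in a window is a description and not a bound site. The genomic sequence under the peaks themselves was not used here.

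For 3 further lists of neural genes the shares fell on both sides of those of all genes (31.7% with doxycycline and 30.6% without). Of 13 other ventral genes 5 lay within 100 kb of a doxycycline summit (38.5%) and 3 of an untreated one. They were led by Isl1, a factor of motor neurons that is also a heart field gene (6.95-fold, inside the gene). Lhx3, another motor neuron factor, followed (6.58-fold, 31.3 kb away), then Ntn1, the floor plate guidance cue netrin (5.85-fold, inside the gene), and Neurog3 (5.12-fold, 42.04 kb away). Untreated summits lay near Lhx3 (5.50-fold, 96.8 kb) and Neurog3 (5.50-fold, 18.2 kb). Among 18 other intermediate and dorsal genes the counts were 4 with doxycycline (22.2%) and 5 without. With doxycycline they included Lmx1a, the roof plate factor (8.04-fold, 47.4 kb away), Msx2 (5.85-fold, inside the gene) and Gsx1 (5.12-fold, 29.1 kb). Those without included Dbx2 (4.72-fold, 3.53 kb). Of 12 other neural progenitor genes 2 had a doxycycline summit (16.7%), Msi1 (10.02-fold, 57.9 kb) and Neurog1 (5.12-fold, 77.2 kb). There 5 had an untreated one, led by Sox11 (10.6-fold, 2.49 kb) and Nes (6.29-fold, 90.8 kb), which encodes the progenitor filament nestin.

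Heart field and Hedgehog pathway genes, described for comparison, had higher shares with doxycycline, and without it the heart field share was lower and the Hedgehog share higher than that of the 10 genes (40%). Of 15 heart field transcription factors 11 (73.3%) lay within 100 kb of a doxycycline summit and 3 (20%) of an untreated one, and 8 had a doxycycline peak with a −log10 q of at least 5. Hand1 (16.1-fold, 52.02 kb away), Hand2 (9.93-fold, 9.51 kb), Gata6 (9.50-fold, inside the gene) and Gata5 (8.999-fold, 89.8 kb) led with doxycycline, and Tbx20 (7.07-fold, 97.4 kb) and Foxf1 (4.68-fold, 90.9 kb) without. Foxf1 and Foxc2, both among the 11, share 1 doxycycline peak. In the list of 12 Hedgehog genes the counts were 8 (66.7%) with doxycycline and 7 (58.3%) without, led by Ptch1 at 17.7-fold, inside the gene, then Sufu, Gli1 and Hhip (10.1-fold, 8.04-fold and 7.31-fold). Gli2 and Smo led its untreated peaks (7.07-fold and 5.50-fold). The strongest doxycycline −log10 q was 30.1 in the Hedgehog list, 25.5 in the heart field list and 9.35 among the 10 patterning genes. These lists were chosen with earlier results of these data known, and the differences between them were not tested.

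**Figure D4:**
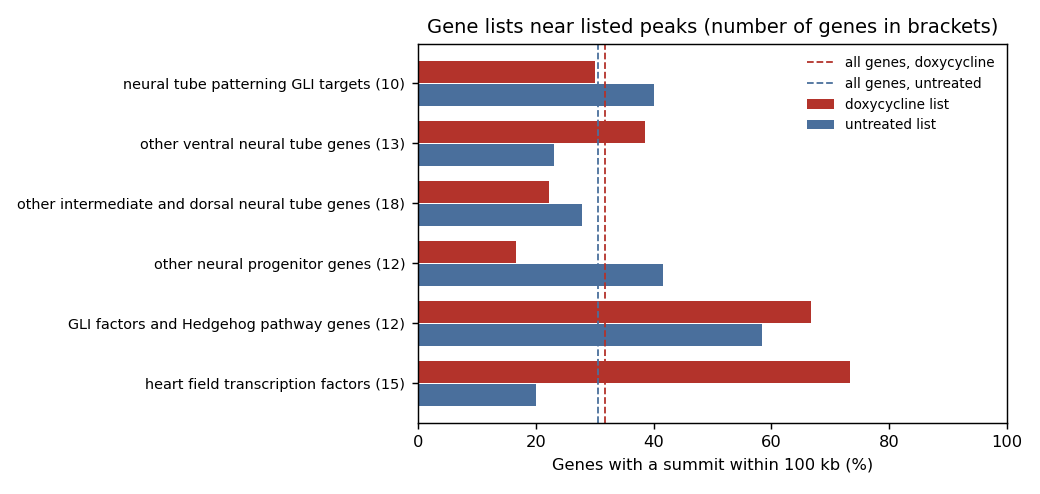
Share of each gene list with a summit within 100 kb, in percent, for the doxycycline list (red bars) and the untreated list (blue bars), with the number of genes in brackets and dashed lines at the shares of all protein-coding genes. The patterning genes stand at 30% and 40%, near the lines at 31.7% and 30.6%, and the heart field factors at 73.3% and 20%.

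Few genes shared the peaks of the 10 patterning genes. Likeness was taken as the same set of summits within 100 kb over both lists. Gm42134 and Cds1, which lie 58.4 and 100.4 kb from Nkx6-1, had the same single untreated summit as Nkx6-1. Elp4, which neighbours Pax6, shared the Pax6 doxycycline summit and had 1 more of its own. No other protein-coding gene shared a summit with Foxa2, Sox2 or Irx3.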

How the data were processed

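ChIP-seq of tagged GLI3R was made in 4 pull-downs with 2 inputs, grouped by their titles. The treatment and extraction texts in the labels name GLI1. Reads were aligned and peaks called with Bowtie2 2.3.2, SAMtools 1.5 and MACS2 2.1.1 on mm10, per the submitters' processing notes. The settings, and whether pull-downs were pooled, are not stated in the sources used here. The authors deposited, per peak, a fold enrichment (a ratio that equals (pileup + 1) / (expectation + 1), with a pseudocount of 1 in both terms), −log10 p and −log10 q, and a score equal to 10 times −log10 q, which was not used further. The fold and −log10 q printed are these deposited values.

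Rows sharing an interval were merged (3725 to 3640 and 4428 to 4379 peaks). Pileups were worked back from fold and −log10 p, within 0.01 for 99.8% of peaks in each list. Distances ran from the summit to the RefSeq gene interval of GRCm38.p6. Peak coordinates are counted from 1. Poisson intervals are exact and cover counting error only. Lists and peaks were compared by counts, without a test. Pileup recovery and distance counts were tested on simulated data. The simulated fold and p-values came from the same formula, so this checked the code and not whether the deposited values follow it.

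The genes named are the 10 genes, the gene nearest to each of their peaks, genes with the same summits, and per further list up to 4 genes with the highest doxycycline and 2 with the highest untreated −log10 q. A further gene that this rule names is left out here. Members and lists were chosen with earlier results of these data known, and Kiz, Synj1, Nav2, Pwwp2b, Elp4 and Foxc2 after their values were seen. Computation used scipy 1.17.1, numpy 2.4.6 and pandas 2.3.3 in Python 3.11.15, with matplotlib 3.10.9 for plots.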

Additional observations from a re-analysis of the deposited data

How the results depend on the processing

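No paired analysis was possible because the deposited lists carry no values of single replicates, and for the same reason no replicate could be left out. Genes with a doxycycline summit, 3 within 100 kb, were 1 within 10 kb, 5 within 200 kb, 9 within 500 kb and 1 with a −log10 q of at least 5. Genes with an untreated summit, 4 within 100 kb, were 0 within 10 kb, 1 within 50 kb, 8 within 500 kb and 0 with a −log10 q of at least 5. Doxycycline peaks, 4 within 100 kb, were 1, 2, 7 and 14 within 10, 50, 200 and 500 kb and 2 with a −log10 q of at least 5. Untreated peaks, 5 within 100 kb, were 0, 1 and 17 within 10, 50 and 500 kb, 0 with a −log10 q of at least 5 and 3 with a pileup of at least 5 fragments. The doxycycline minus untreated count of genes, −1 as reported, was 1 at each of the other 4 distances and with a −log10 q of at least 5, and 0 with a pileup of at least 5. Fewer or more peaks pass these limits by construction. Counts that took only the nearest gene, any base of the peak, every row, or only peaks without a counterpart in the other list stayed within 1.5 times those reported. The low pileups, from 4 to 11 fragments, limit what presence in or absence from a list can show.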

Other observations

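Beyond 100 kb, Sox2 stood out by its untreated summits. It had 6 of them within 500 kb and 1 doxycycline summit, and 1.21% of all genes had at least 6 untreated summits at that distance, where the median gene had 1. The strongest of the 6 lay 214 kb downstream, inside the long non-coding RNA gene Gm21388, with 10 fragments, at 8.65-fold and a −log10 q of 8.89. The other 5 had pileups of 4 to 7. Sox2 is the nearest protein-coding gene to 5 of the 6. This count was noticed after the values were seen, among 10 genes, 2 lists and several distances, and was not tested.

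At the other end, Irx3 had no doxycycline summit within 500 kb, which held for 23.8% of all genes. Nkx2-2 and Olig2 had no untreated summit within 500 kb, which held for 22.5% of all genes.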
